A study of Mus musculus with 15 samples.

Results

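The cytosolic ribosomal protein genes were 103 of the 47729 annotated features counted in sorted macrophages of the mouse aorta. They were chosen by a rule on name and biotype that uses no measured value, set with earlier results of these data known. It takes protein-coding genes whose symbol is Rpl, Rps or Rplp followed by a digit, together with Rpsa and without the Rps6k kinases. By this rule 65 belong to the large subunit and 38 to the small subunit. Of the 103, 77 are canonical ribosomal protein genes (46 large, 31 small), 9 are paralogs such as Rpl22l1 and Rps27l, and 16 carry a pseudogene suffix in their symbol although the table lists them as protein-coding. The remaining member, Rps19bp1, encodes a protein that binds RPS19 and is not itself a ribosomal protein. Counts were present in all 15 columns for 94 members, and 83 averaged at least 10 CPM (counts per 1000000 of the column total). The count filter of the comparison with all columns passed 100 members, leaving out Rpl39l, Rpl7a-ps3 and Rpl9-ps1.

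The cytosolic ribosome joins a large subunit, which forms peptide bonds, to a small subunit, which reads the messenger RNA. Each canonical gene encodes a protein of the particle, and their messages, most of them short, are among the most abundant in most cells, macrophages included. Many of these messages begin with a pyrimidine tract, the terminal oligopyrimidine start, through which the mTOR kinase and Larp1 control their translation.

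All libraries came from female Apoe-/- mice (written Apoe dko in the sample labels), which lack apolipoprotein E and develop atherosclerosis, after 4 weeks of high fat diet. F4/80+ CD64+ macrophages from the pooled aortas of 4 mice were sorted into Olfr2+ and Olfr2- cells, by the olfactory receptor Olfr2, and 100 to 200 cells per sort were amplified by Smart-Seq2, a low-input method that copies whole cDNA by PCR. The table holds 10 columns labelled Olfr2+ (samples 2, 3 and 4) and 5 labelled Olfr2- (samples 1, 3 and 4), where the number names a sample and the letter a repeat. Because the sorts are technical replicates of pooled tissue, p-values here measure only the spread between these samples. Column totals were 76.0 to 95.6 M counts (M, 1000000) in 7 Olfr2+ columns (2A to 2D and 3A to 3C) and 29.9 to 53.2 M in the other 8 (Olfr2+ 3D, 4A and 4B, and all Olfr2- columns), and 60 M was used to divide them. They are called the deep and shallow Olfr2+ columns and the Olfr2- columns below.

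The labels and the cells were checked first. The Olfr2 transcript went against the labels, with 0 to 7 counts in Olfr2+ columns and 0 to 76 in Olfr2- columns. The 10 macrophage markers, among them the sort genes Adgre1 and Fcgr1, summed to 7734 to 14846 CPM in deep Olfr2+ columns. They summed to 2429 to 3215 CPM in shallow Olfr2+ columns and 1468 to 8415 CPM in Olfr2- columns. Lyz2 alone held 4740 to 10335, 1320 to 2135 and 716 to 7847 CPM in the same order. Adgre1 held 123 to 312, 46.0 to 84.3 and 9.48 to 235 CPM. Fcgr1 was low in both other sets, with 0.544 to 103, 0.772 to 3.43 and 4.18 to 19.95 CPM. Its medians were 44.2, 1.24 and 4.49 CPM. The 6 fibroblast markers summed to 28230 to 34773, 2114 to 4770 and 2082 to 3808 CPM in the same order, and the 8 markers of B and plasma cells to 236 to 5548, 37089 to 61640 and 24321 to 48078 CPM. Within the B and plasma cell list, Igkc alone held 90.3 to 997, 24889 to 39601 and 19217 to 34328 CPM. Cd79a did not follow it, with 0 to 46.2, 0.703 to 3.70 and 0.262 to 3.43 CPM. No marker of these 3 lists was at 0 in every column. Their part in the results on ribosomal protein genes was not tested, and in such bulk samples fewer cells of a type and less RNA per cell cannot be told apart.

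The differences described here went with coding length, so the coding sequences of 3 short messages are shown first, 5′ to 3′, as annotated in GENCODE M21 (GRCm38). Rpl41 is the shortest canonical member, and Rpl39 and Rpl38 had some of the lowest deep over shallow ratios. Rpl41 encodes a very short basic peptide at the interface between the subunits, Rpl39 a protein that lines the exit tunnel for the new peptide, and Rpl38 a large subunit protein needed for normal axial patterning in mice. Their coding lengths are 78, 156 and 213 bases, in that order, against 1260 bases for Rpl4, the longest canonical member.
Rpl41: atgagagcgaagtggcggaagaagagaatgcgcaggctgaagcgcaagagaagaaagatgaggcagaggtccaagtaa
Rpl39: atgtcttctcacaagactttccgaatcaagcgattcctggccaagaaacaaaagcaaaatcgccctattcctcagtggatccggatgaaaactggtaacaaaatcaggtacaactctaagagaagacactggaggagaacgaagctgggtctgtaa
Rpl38: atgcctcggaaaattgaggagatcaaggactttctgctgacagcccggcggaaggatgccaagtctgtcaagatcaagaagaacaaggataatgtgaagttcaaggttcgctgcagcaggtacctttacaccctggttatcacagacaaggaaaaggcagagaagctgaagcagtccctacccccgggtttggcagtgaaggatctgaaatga

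Ribosomal protein genes took a smaller part of the deep Olfr2+ columns than of any other column. Their summed level in deep Olfr2+ columns was 10551 CPM at the lowest, 12721 CPM at the median and 15352 CPM at the highest. The shallow Olfr2+ columns 3D, 4A and 4B held 35720, 37885 and 40954 CPM. The Olfr2- columns 1A, 3A, 3B, 4A and 4B held 35333, 36275, 35149, 33371 and 30339 CPM. No deep Olfr2+ column overlapped either of the other sets, and the shallow Olfr2+ columns overlapped the Olfr2- columns. As a share of all counts this was 1.06% to 1.54% in deep Olfr2+ columns, 3.57% to 4.10% in shallow Olfr2+ columns and 3.03% to 3.63% in Olfr2- columns. No test was made between deep and shallow columns, because the division follows a property of the files and not a label.

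The subunits did not move by equal amounts. The large subunit genes summed to a median of 7181 CPM in deep Olfr2+ columns, 17093 CPM in shallow Olfr2+ columns and 17432 CPM in Olfr2- columns. The small subunit genes summed to medians of 5545, 20792 and 17385 CPM in the same order. The ratio of large to small subunit levels was therefore above 1 in every deep Olfr2+ column (1.29 to 1.64) and below 1 in every shallow Olfr2+ column (0.822 to 0.898), while in Olfr2- columns it lay on both sides of 1 (0.886 to 1.19).

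**Figure D1:**
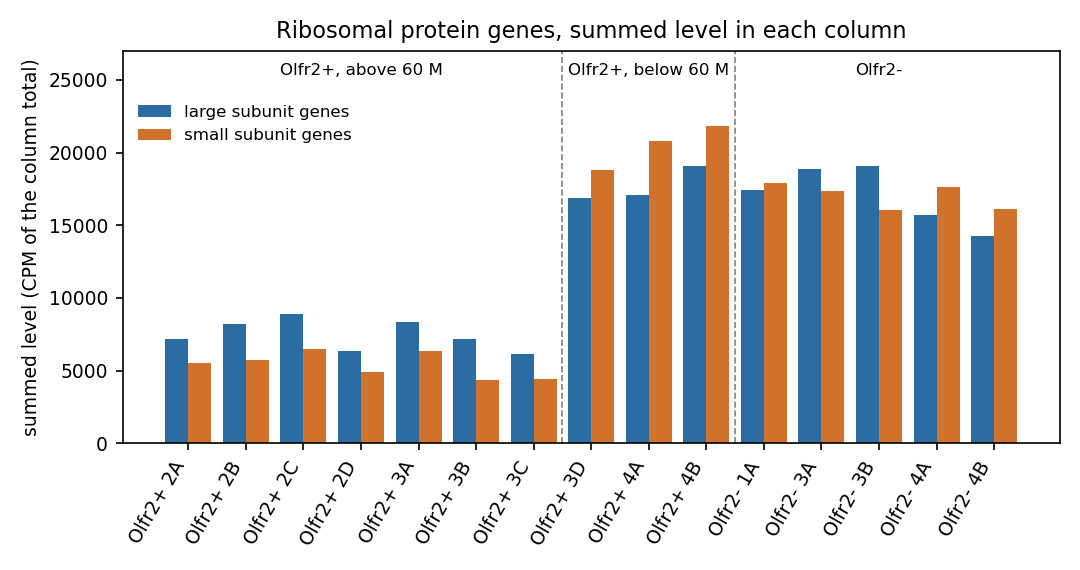
Summed level of the large subunit (blue) and small subunit (orange) genes, in CPM of the column total, in each of the 15 columns. Both bars are lower in the 7 deep Olfr2+ columns than in the 3 shallow Olfr2+ and 5 Olfr2- columns, and the large subunit bar is the taller one in all 7.

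Both kinds of column were present within Olfr2+ sample 3, where the descriptions of columns 3C and 3D give each a library name of its own and the same second name. Columns 3A, 3B and 3C held 14677, 11550 and 10551 CPM of ribosomal protein genes, against 35720 CPM in column 3D. Of the 77 canonical genes, 62 were lower in column 3C than in column 3D, with a median log2 ratio of -1.45. The difference was thus also present between columns that share a label, a sample number and this second name, whose meaning the labels do not state.

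Gene by gene, 59 of the 77 canonical genes had a lower median level in deep than in shallow Olfr2+ columns and 18 a higher one, with a median log2 ratio of -1.49, or 2.81-fold lower. In 39 of 77 canonical genes every deep Olfr2+ column was below every shallow Olfr2+ column, and in 0 was every deep column above. Over all 24362 genes tested, 18.9% were lower without overlap in this way and 2.85% higher. Among the 8746 genes with a mean of at least 10 CPM, which hold 76 of the 77 canonical genes, the shares were 5.87% lower and 7.07% higher, and the median log2 ratio was 0.49. Counting paralogs and suffixed copies too, 50 of the 100 members that passed the count filter were lower without overlap. By subunit the counts were 19 of 46 large subunit genes (median log2 ratio -1.25) and 20 of 31 small subunit genes (-1.92).

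These ratios went with coding length. Across the 77 canonical genes the Spearman correlation of the deep over shallow log2 ratio with coding length was 0.73, with 0.75 over the 46 large and 0.67 over the 31 small subunit genes. These correlations are across genes that share the same libraries and depth, and are given as a description. Over 8304 other protein-coding genes with a mean of at least 10 CPM the correlation was -0.09. In each of the 7 deep Olfr2+ columns, set against the shallow Olfr2+ median, it lay between 0.62 and 0.75, whereas in the 5 Olfr2- columns it lay between -0.21 and 0.44, the highest being column 3A. Between columns 3C and 3D of Olfr2+ sample 3 it was 0.70.

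The gradient ran through the whole family. The 9 canonical genes with a coding length of at most 300 bases had a median log2 ratio of -4.06, and all 9 were lower without overlap. The 27 genes above 300 and up to 450 bases had a median of -2.21, with 20 lower without overlap. The 19 genes up to 600 bases had a median of -1.28, with 8 lower without overlap, and the 19 genes up to 900 bases had a median of 0.04, with 2 lower without overlap. The 3 genes above 900 bases, Rplp0, Rpl3 and Rpl4, had a median of 0.93, with 0 lower without overlap. Other protein-coding genes of the same length classes had medians of 0.50, 0.59, 0.87, 0.92 and 0.74, all above 0. All of these classes but the second hold under 20 canonical genes. Without the shortest and the longest class the correlation over the 65 genes left was 0.62, and with transcript length in place of coding length it was 0.55 over all 77. By transcript length, 53 other genes of up to 500 bases had a median below 0, at -0.14, against -2.92 for 18 canonical genes. In the classes up to 700, 1000 and 2100 bases the other genes had medians of 0.48, 1.34 and 1.06. Their correlation with transcript length was -0.13.

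**Figure D2:**
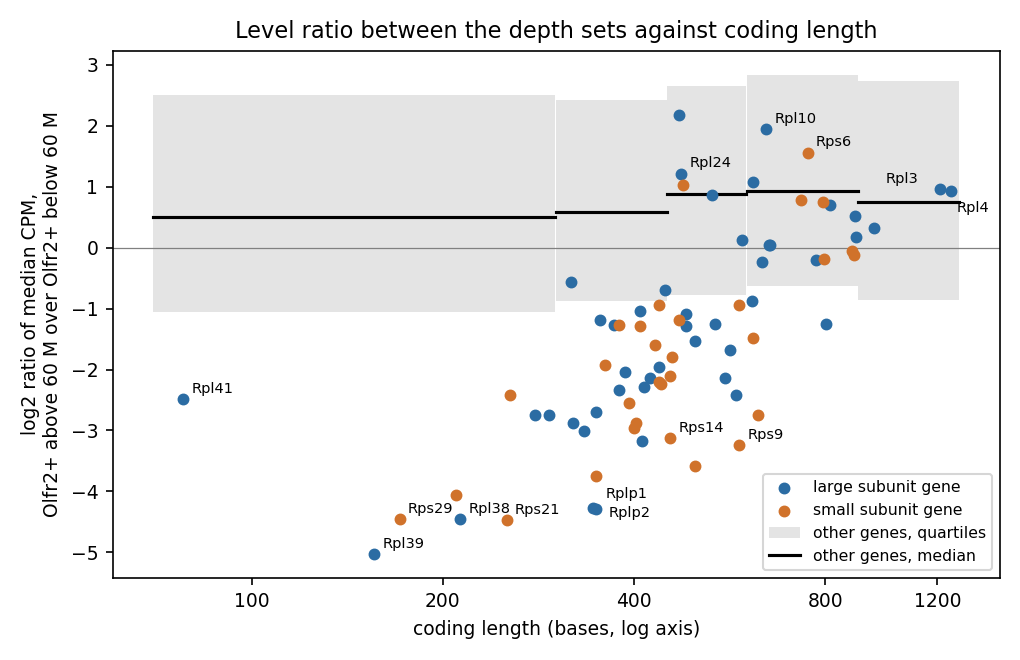
Log2 ratio of the median CPM in deep over shallow Olfr2+ columns (pseudocount 0.5 CPM) against coding length on a log axis, for 77 canonical genes of the large (blue) and small (orange) subunit. Grey bands and black lines give the quartiles and median of other protein-coding genes in the same length classes. The lowest points are short genes, with Rpl39 at -5.02, and the points of Rpl3 and Rpl4 at the long end lie at 0.96 and 0.93. Rpl41, the shortest gene, lies off this climb at -2.48, and the black lines stay above 0.

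Summed levels show the same contrast. The 20 canonical genes with the shortest coding length (78 to 378 bases) summed to a median of 1304 CPM in deep Olfr2+ columns, 13304 CPM in shallow Olfr2+ columns and 11682 CPM in Olfr2- columns. All 20 were lower in deep columns by their medians, and 19 without overlap. The 20 longest (615 to 1260 bases) summed to 6531, 6197 and 5199 CPM in the same order, with 13 above and 7 below 1 in the deep over shallow ratio. Weighted by their counts, the members had a mean transcript length of 991 to 1041 bases in deep Olfr2+ columns, 761 to 779 bases in shallow Olfr2+ columns and 734 to 824 bases in Olfr2- columns.

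Among exit tunnel and core proteins of the large subunit, the difference ran both ways. Rpl39 had a lowest, median and highest level of 20.5, 29.4 and 44.3 CPM in deep Olfr2+ columns, against 1426, 815 and 972 CPM in the shallow Olfr2+ columns 3D, 4A and 4B. The Olfr2- columns 1A, 3A, 3B, 4A and 4B held 1411, 614, 635, 901 and 1297 CPM of Rpl39. Its deep Olfr2+ columns lay 33.1-fold below the shallow ones by the medians, and no deep column came near either other set. Rpl41, although shorter, differed less: it had a lowest, median and highest level of 61.6, 102 and 198 CPM in deep Olfr2+ columns, against 418, 574 and 880 CPM in shallow Olfr2+ columns and 502, 642, 268, 490 and 509 CPM in Olfr2- columns. Its deep Olfr2+ columns lay 5.60-fold below the shallow ones by the medians, again without overlap with either other set. Rpl4, whose long extension also reaches the exit tunnel, had a lowest, median and highest level of 581, 1009 and 1198 CPM in deep Olfr2+ columns. It held 278, 582 and 529 CPM in shallow Olfr2+ columns, and 201, 213, 252, 380 and 364 CPM in Olfr2- columns. For Rpl4 the deep columns were therefore the high ones, overlapping the shallow Olfr2+ columns by a narrow margin and lying above every Olfr2- column. Rpl3, which contacts the peptidyl transferase centre, held 154 to 714 CPM in deep Olfr2+ columns, 62.7 to 269.4 CPM in shallow Olfr2+ columns and 12.5 to 699 CPM in Olfr2- columns, and its sets overlapped.

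The P stalk, which recruits the elongation factors, was split between its members. Rplp1, one of its acidic tip proteins, had a lowest, median and highest level of 129, 162 and 222 CPM in deep Olfr2+ columns. Shallow Olfr2+ columns held 2911, 3493 and 3147 CPM, and Olfr2- columns 4601, 1946, 4485, 3767 and 1986 CPM. Rplp2, the other tip protein, held 50.5 to 103 CPM in deep Olfr2+ columns, 1518 to 1824 CPM in shallow Olfr2+ columns and 1050 to 3506 CPM in Olfr2- columns. Both tip genes were more than 10-fold lower in deep than in shallow Olfr2+ columns (19.5-fold and 19.6-fold by the medians), without overlap. Rplp0, the base of the stalk and the longer gene, held 290 to 1131 CPM in deep Olfr2+ columns, 582 to 635 CPM in shallow Olfr2+ columns and 470 to 774 CPM in Olfr2- columns, so all sets overlapped.

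Short small subunit genes followed the tip proteins. Rps29, a zinc-binding protein of the small subunit head, had a lowest, median and highest level of 9.88, 25.5 and 45.0 CPM in deep Olfr2+ columns, against 655, 533 and 566 CPM in shallow Olfr2+ columns and 390, 340, 316, 441 and 88.5 CPM in Olfr2- columns. Rps28, which lies near the exit of the messenger RNA channel, held 8.64 to 78.0 CPM in deep Olfr2+ columns, 390 to 588 CPM in shallow Olfr2+ columns and 111 to 368 CPM in Olfr2- columns. Rps21, a small subunit protein of 252 coding bases, held 27.2 to 80.3, 656 to 1413 and 486 to 1258 CPM in the same order. For all 3 genes the deep Olfr2+ columns lay below both other sets. At the other end Rps6, the small subunit protein phosphorylated by S6 kinases, held 10.8 to 170 CPM in deep Olfr2+ columns, 1.74 to 52.8 CPM in shallow Olfr2+ columns and 2.13 to 262 CPM in Olfr2- columns, with overlap between all sets. Its deep over shallow ratio of medians, 2.97, was the highest among canonical small subunit genes with a mean of at least 10 CPM. Among canonical large subunit genes at that level Rpl10, a late-joining protein near the peptidyl transferase centre, had the highest ratio at 3.85, followed by Rpl24, a bridge protein to the small subunit, at 2.82. Rpl24 was a low gene, with 1.65 to 14.8 CPM in deep Olfr2+ columns, 0.827 to 17.2 CPM in shallow Olfr2+ columns and 1.497 to 71.7 CPM in Olfr2- columns.

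Members with known roles outside the ribosome lay between these ends. Rpl5 and Rpl11 travel with the 5S ribosomal RNA and can bind Mdm2, the inhibitor of p53. Rpl5 held 71.8 to 287 CPM in deep Olfr2+ columns, 73.3 to 154 CPM in shallow Olfr2+ columns and 23.2 to 157 CPM in Olfr2- columns. Rpl11 held 37.5 to 117, 74.2 to 163 and 69.6 to 191 CPM in the same order, and both genes overlapped between the sets. Rpl13a, which in human monocytes also takes part in a complex that silences inflammatory messages, held 158 to 359, 261 to 537 and 70.3 to 718 CPM, again with overlap. Rps19, the gene most often mutated in human Diamond-Blackfan anaemia, held 90.1 to 299, 164 to 563 and 23.3 to 1226 CPM, with overlap.

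**Figure D3:**
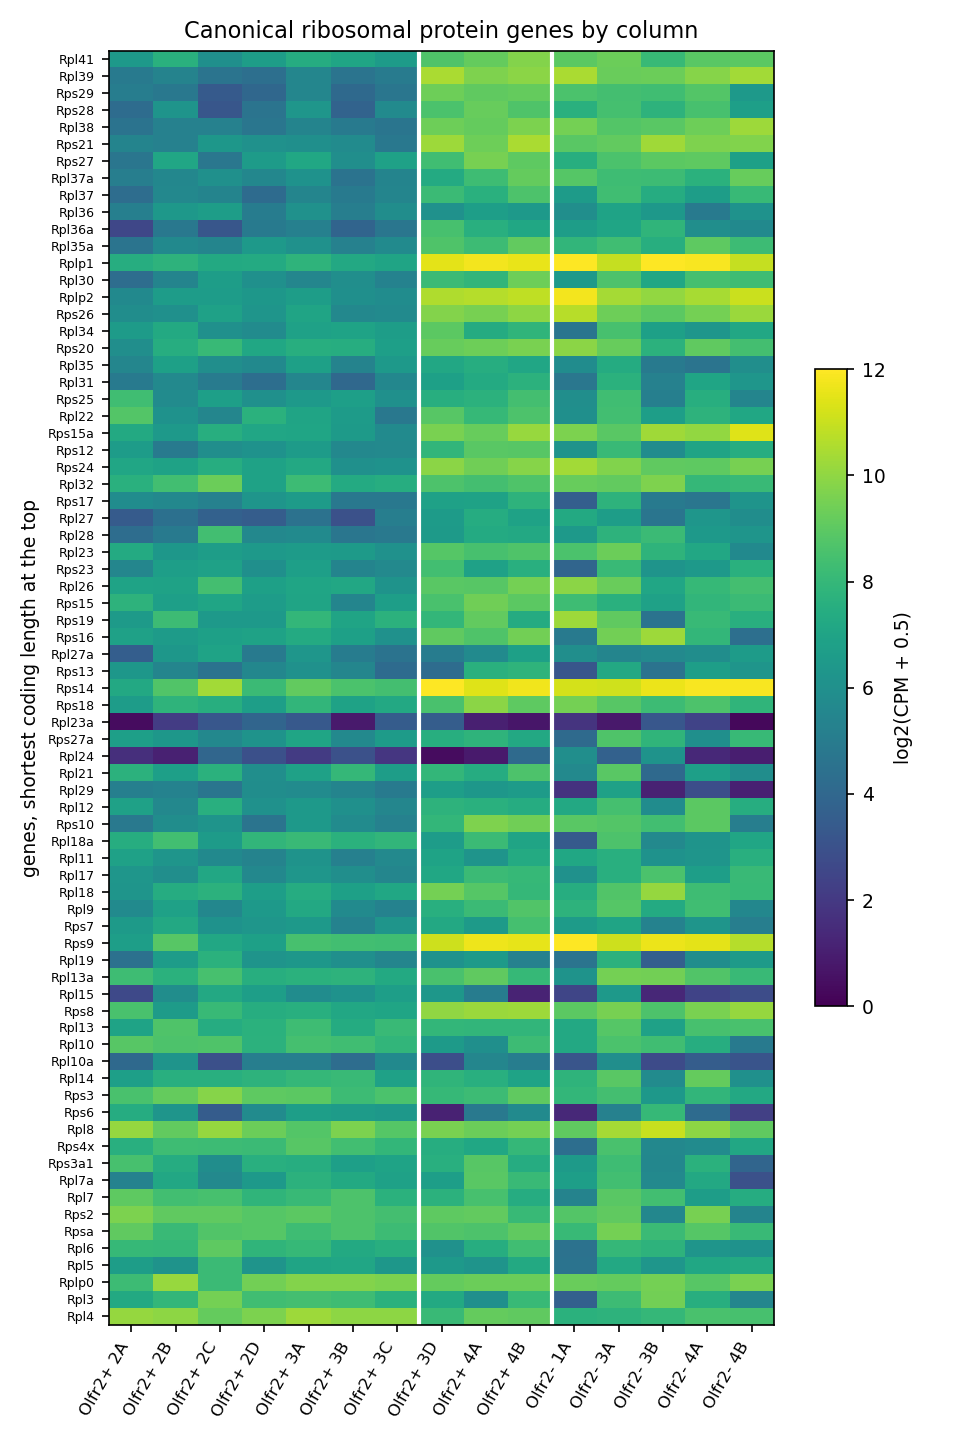
Level of canonical genes (rows, shortest coding length at the top) in each of the 15 columns, coloured by log2(CPM + 0.5); white lines part the deep Olfr2+, shallow Olfr2+ and Olfr2- columns. The deep Olfr2+ columns are dark in the upper rows, where Rpl39, Rps29 and Rpl38 stand, and as bright as the others or brighter in the lowest rows, where Rplp0 and Rpl4 stand.

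The shape of the family, as opposed to its sum, was shared by shallow Olfr2+ and Olfr2- columns. Over the 77 canonical genes the Spearman correlation of levels between a shallow Olfr2+ and an Olfr2- column had a median of 0.78 (0.65 to 0.85 over 15 pairs). Pairs of shallow Olfr2+ columns had a median of 0.82, pairs of Olfr2- columns 0.66 and pairs of deep Olfr2+ columns 0.80. A deep and a shallow Olfr2+ column correlated at a median of 0.27 (0.19 to 0.40 over 21 pairs), and a deep Olfr2+ and an Olfr2- column at 0.30. Over the 8746 genes with a mean of at least 10 CPM the medians were 0.59 between shallow Olfr2+ and Olfr2- columns and 0.36 between deep and shallow Olfr2+ columns. These values describe columns that share samples and depth.

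Levels can be compared between genes only per length, here as CPM per kilobase of the shortest transcript that encodes the main product. On that scale Rplp1 had a median of 324 CPM per kilobase in deep Olfr2+ columns, where it ranked 10, and medians of 6307 in shallow Olfr2+ columns and 7550 in Olfr2- columns, where it ranked 1. Rps14, a protein of the small subunit platform, ranked 2 in all 3 sets, with medians of 660 in deep Olfr2+ columns, 5757 in shallow Olfr2+ columns and 5375 in Olfr2- columns. Rps9, which lies near the entry of the messenger RNA channel, ranked 8 in deep Olfr2+ columns (422) and 3 in shallow Olfr2+ columns (4009) and Olfr2- columns (3934). Rpl8, a core protein of the large subunit, ranked 1 in deep Olfr2+ columns with 742 CPM per kilobase, 21 in shallow Olfr2+ columns with 851 and 9 in Olfr2- columns with 1168. Ranges of neighbours overlapped: Rplp1 and Rps14 spanned 5833 to 7000 and 4594 to 7554 CPM per kilobase in shallow Olfr2+ columns. At the low end, the canonical gene Rpl23a stayed at or below 14.7 CPM in all columns.

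**Figure D4:**
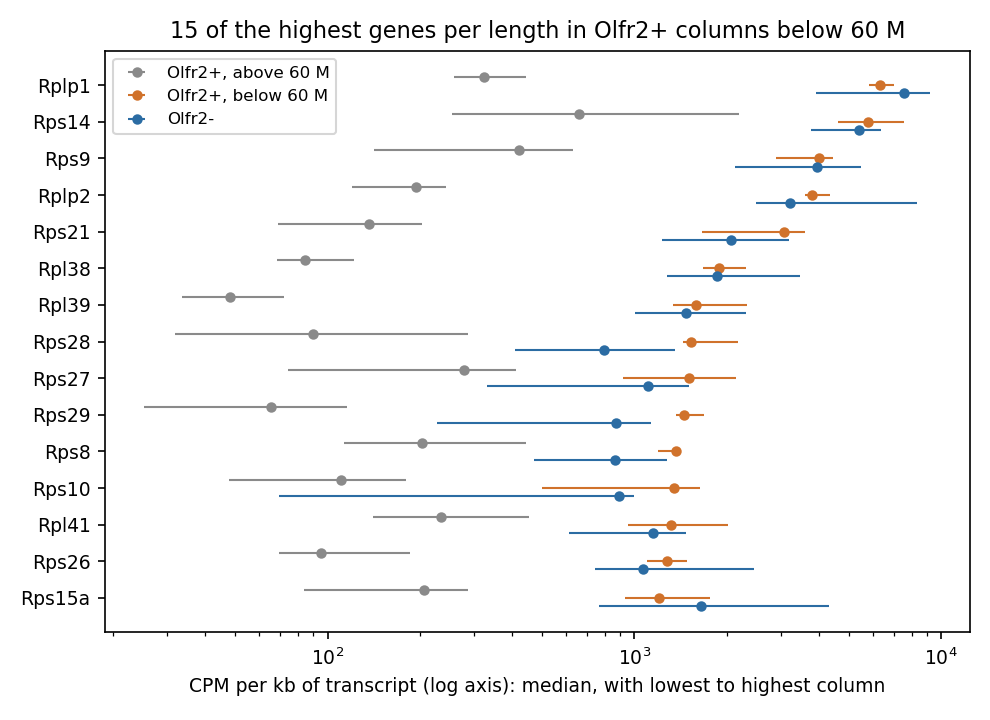
Level per transcript length (CPM per kilobase, log axis) of 15 of the members highest in shallow Olfr2+ columns; dots are medians and lines run from the lowest to the highest column of the deep Olfr2+ (grey), shallow Olfr2+ (orange) and Olfr2- (blue) sets. The orange and blue lines overlap for each gene but Rps28 and Rps29, and the grey lines lie left of the orange ones.

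Genes varied within a set as well as between sets. The median over canonical genes of the SD of log2 levels was 0.62 in deep Olfr2+ columns, 0.54 in shallow Olfr2+ columns and 0.98 in Olfr2- columns. Over 8663 other genes with a mean of at least 10 CPM it was 2.09, 1.30 and 1.37. These other genes were not matched to the canonical genes in level, so the values do not show that the family is steadier. Rpl15, an early-assembling large subunit protein, was the most variable canonical gene in both Olfr2+ sets, with 81.6, 32.7 and 1.77 CPM in the shallow columns 3D, 4A and 4B, while in Olfr2- columns Rps16, a small subunit head protein, took that place (20.1 to 1193 CPM). The steadiest canonical gene was Rplp1 in deep Olfr2+ columns and Rpl13 in shallow Olfr2+ columns.

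The comparison between labels at like depth asked whether Olfr2+ and Olfr2- macrophages differ in these genes. By medians the shallow Olfr2+ columns lay 1.35-fold above the Olfr2- columns over the 77 canonical genes (median log2 ratio 0.43), and this ratio did not follow coding length (Spearman -0.05). Rps15, Rps28 and Rps29 were higher in every shallow Olfr2+ column than in every Olfr2- column, 3 of 77 canonical genes, where 1.02% of all tested genes and 2.42% of those with a mean of at least 10 CPM were. The suffixed copy Rpl10-ps3 was the only other member to do so, and 0 members were lower without overlap, against 5.18% of all tested genes and 4.66% of those with a mean of at least 10 CPM. Rps15, a protein of the small subunit head, held 375, 672 and 500 CPM in shallow Olfr2+ columns and 308, 195, 118, 235 and 289 CPM in Olfr2- columns.

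No ribosomal protein gene passed the threshold in that comparison, which had little power to call any gene. In counts simulated for it, edgeR recovered 0 of 50 genes changed by 3 log2 units and 7 of 50 changed by 7. A lack of calls therefore cannot tell no difference from differences of such sizes. Counts were summed per numbered sample (2 Olfr2+ against 3 Olfr2-), and in edgeR's quasi-likelihood test with Benjamini-Hochberg adjustment over all genes 0 of 101 members were called, where 0% of all 29989 genes were called. At an unadjusted p under 0.05 1 member passed, Rps14 (edgeR adjusted p = 0.473, log2 fold change 1.15 with SE 0.53), where 10.4% of all genes did. DESeq2 called 0 of 92 members with an adjusted p, where it called 7.08% of 13960 genes higher and 1.51% lower. Limma-voom called 0 members, and also 0 genes of every other list examined. The median log2 fold change over the members was 0.99 (0.91 large, 1.19 small), against -0.43 over all genes tested. It stayed above 0 under every scaling tried, but was 0.14 when scaling and test were limited to genes with a mean of at least 10 CPM. The highest fold changes among members with a mean of at least 10 CPM were Rpl29 at 2.42 (SE 1.49), Rpl34 at 2.02, Rpl36a at 2.00, Rps12 at 2.11, Rps7 at 1.91 and Rps15 at 1.86. Among the lowest were Rps19bp1 at -3.56 (SE 2.00), Rpl7l1 at -2.24, Rpl24 at -1.89, Rpl22l1 at -1.07 and Rps6 at -0.50. None of these genes passed in edgeR, the adjusted p-values of Rpl29 and Rps19bp1 being 0.557 and 0.524. Rpl29, a heparin-binding protein of the large subunit, held 106, 80.8 and 96.5 CPM in shallow Olfr2+ columns, against 2.85, 117, 1.73, 6.81 and 1.62 CPM in Olfr2- columns, where column 3A alone reached the level of the Olfr2+ columns.

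With all columns, summed into 3 Olfr2+ and 3 Olfr2- samples, 0 of 100 members were called by edgeR in either direction, where 1.12% of the 24362 genes were called higher and 0.46% lower in Olfr2+. At an unadjusted p under 0.05 6 members passed, where 32.1% of all genes did. DESeq2 called 3 of 99 members with an adjusted p (Rpl4 and Rps18-ps3 higher, Rpl3l lower), where it called 12.5% of 31189 genes higher and 8.21% lower. Limma-voom called 0 members. It also called 0 of the 6 fibroblast markers, of which edgeR and DESeq2 each called 6 higher, so its 0 says little about the members. The 2 samples with deep columns, Olfr2+ 2 and 3, are weighted by those columns, so this comparison holds the depth sets and the labels together, and in sample 2 they cannot be told apart. The median log2 fold change over the members was 0.54 (0.51 large, 0.63 small) against 0.24 over all genes, but it was -0.42 with library totals in place of TMM factors and -0.54 when limited to genes with a mean of at least 10 CPM, so it has no settled direction.

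Rpl4 came nearest to a call in that comparison. Its summed samples held 871, 978 and 558 CPM in Olfr2+ samples 2, 3 and 4, against 201, 227 and 373 CPM in Olfr2- samples 1, 3 and 4. All Olfr2+ samples lay above all Olfr2- samples. The edgeR adjusted p was 0.0634 at a log2 fold change of 2.83 (SE 0.82). In the comparison with shallow columns the edgeR adjusted p of Rpl4 was 0.569 at a log2 fold change of 1.46 (SE 0.92). With all columns Rpl4 was called in DESeq2 and without Olfr2+ sample 4. It was also called with the columns as replicates, a setting that counts repeats of a sample as independent. Among members with a mean of at least 10 CPM, the other highest large subunit genes were Rpl15 at 2.63 (SE 1.29) and Rpl6 at 2.30 (SE 1.02). The highest small subunit genes with that mean were Rps3, at the entry of the messenger RNA channel, at 2.28 (SE 0.86), Rps4x, the X-linked small subunit protein, at 2.23 (SE 1.01) and Rps27l at 1.94 (SE 1.04). The lowest large subunit genes with that mean were Rpl22l1 at -2.27 (SE 1.28), Rpl24 at -1.14 (SE 1.41) and Rplp2 at -0.74 (SE 0.82). The lowest small subunit genes with that mean were Rps15a at -0.58, Rps26, which contacts the message at the channel exit, at -0.55, and Rps9 at -0.28. The edgeR adjusted p of these genes lay between 0.0957 for Rps3 and 0.792 for Rps9. Rpl22l1 turned to 2.05 without Olfr2- sample 3, and Rplp2, Rps15a, Rps26 and Rps9 turned to 0.38, 0.25, 0.49 and 0.60 with the depth set as a covariate.

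**Figure D5:**
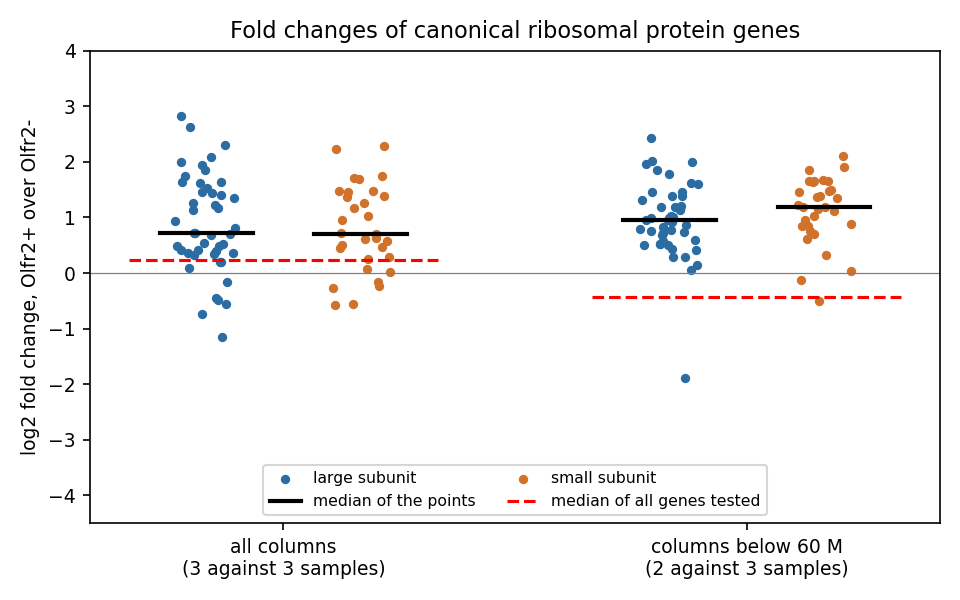
Log2 fold change, Olfr2+ over Olfr2-, of the 77 canonical genes in the comparison with all columns (left, 3 against 3 samples) and with shallow columns (right, 2 against 3), large subunit in blue and small subunit in orange. Black lines are the medians of the points and red dashed lines the medians of all genes tested (0.24 and -0.43); no point passed an adjusted p of 0.05.

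Paralogs and copies were counted apart from their main genes. Rpl22l1, the paralog of Rpl22 with 69.3% identical coding bases, held 1.24 to 63.4 CPM in deep Olfr2+ columns, 145, 24.5 and 4.82 CPM in shallow Olfr2+ columns, and 19.8, 180, 1574, 16.8 and 8.61 CPM in Olfr2- columns. Its level in Olfr2- column 3B stood far above all others. Rps27l, the paralog of Rps27 (77.1% identical), held 68.4 to 219 CPM in deep Olfr2+ columns, 92.0, 131 and 20.9 CPM in shallow Olfr2+ columns and 15.5 to 87.8 CPM in Olfr2- columns. Unlike Rps27, whose coding length is also 255 bases and whose deep Olfr2+ columns lay 5.39-fold below the shallow ones, Rps27l overlapped between the sets. Rpl36al, 87.9% identical to Rpl36a, held 11.5 to 64.4 CPM in deep Olfr2+ columns, 136 to 203 CPM in shallow Olfr2+ columns and 58.0 to 159 CPM in Olfr2- columns. Rpl3l, a paralog of Rpl3 known from skeletal and heart muscle, did not exceed 3.06 CPM in any column. Rpl10l and Rpl39l, paralogs of Rpl10 and Rpl39 known from the testis, did not exceed 0.919 CPM, and Rpl39l had counts in 4 of 15 columns. Rpl6l held 1.38 to 6.70 CPM in deep Olfr2+ columns, 5.41 to 17.1 CPM in shallow Olfr2+ columns and 2.26 to 11.7 CPM in Olfr2- columns. Rpl7l1 (57.2% identical to Rpl7) held 0.751 to 98.5, 1.81 to 4.93 and 3.49 to 84.0 CPM in the same order, with overlap between the sets.

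Some copies cannot be separated from their main gene by coding sequence. Rps27rt, Rpl10-ps3 and Rps12-ps3 share 100% of their coding bases with Rps27, Rpl10 and Rps12, and Rpl9-ps6 differs from Rpl9 at 1 base, so their counts and those of the main genes are uncertain. Rps27rt held 0.825 to 3.64 CPM in deep Olfr2+ columns, 24.99 to 36.0 CPM in shallow Olfr2+ columns and 17.9 to 26.3 CPM in Olfr2- columns, far below Rps27 in each set. Per kilobase of transcript, Rpl9-ps6 had the highest median of the 16 suffixed copies in shallow Olfr2+ columns (30.04 CPM per kilobase) and in Olfr2- columns (24.9), whereas in deep Olfr2+ columns Rps18-ps3 (9.43) and Rpl10-ps3 (4.56) stood above it (3.97). Rpl9-ps6 held 0.391 to 7.87 CPM in deep Olfr2+ columns, 20.9 to 32.4 CPM in shallow Olfr2+ columns and 11.8 to 32.2 CPM in Olfr2- columns. The lowest members with counts in all 15 columns were Rpl21-ps4, Rpl7a-ps5 and Rpl13a-ps1 of the large and Rps12-ps3, Rps26-ps1 and Rps18-ps3 of the small subunit, none of which exceeded 9.80 CPM. A further 250 features with an Rpl or Rps symbol that are not protein-coding summed to 98.2 to 599 CPM in deep Olfr2+ columns, 712 to 883 CPM in shallow Olfr2+ columns and 540 to 785 CPM in Olfr2- columns.

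Pyrimidine motifs near the annotated start were looked for because a pyrimidine start is the sequence feature these genes are known for. RefSeq start regions (GRCm38.p6) were matched for 57 of the 77 canonical genes, and 4 motifs were searched on both strands from 30 bases before to 20 bases after the annotated start, where matches may share bases. The motif CTTTC was on the sense strand in 31.6% of the 57 (18 genes) and on the other strand in 8.77% (5 genes). Over all 27025 start regions the shares were 8.00% and 6.96%. CTTTT was on the sense strand in 14.0% and on the other in 5.26% of the members, against 6.59% and 7.045% of all start regions. CTTCC showed little difference between strands, at 28.1% and 26.3% of the members, against 12.7% and 13.7% of all. TATAA, the core of the TATA box, was in 8.77% and 3.51% of the members, against 4.57% and 2.64% of all. A match need not lie at the first base of the message, so it is not by itself a pyrimidine start. The 7 regions below are examples, short genes first, and capitals mark CTTTC. In Rpl38 and Rplp2 the marked motif directly follows the 30 bases before the annotated start. In Rpl4 and Rpl5 it lies before the annotated start, and in Rps26 and Rpl15 further after it. Rpl35 has a marked copy on each side.
Rpl38 (chr11:114668550-114668599, plus strand): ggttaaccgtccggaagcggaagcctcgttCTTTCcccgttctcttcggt
Rplp2 (chr7:141447621-141447670, plus strand): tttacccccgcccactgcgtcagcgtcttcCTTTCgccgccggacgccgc
Rps26 (chr10:128626487-128626536, minus strand): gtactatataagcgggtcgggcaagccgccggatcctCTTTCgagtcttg
Rpl35 (chr2:39005112-39005161, minus strand): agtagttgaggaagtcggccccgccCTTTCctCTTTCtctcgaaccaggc
Rpl15 (chr14:18270967-18271016, minus strand): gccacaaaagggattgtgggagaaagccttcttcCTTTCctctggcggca
Rpl5 (chr5:107900498-107900547, plus strand): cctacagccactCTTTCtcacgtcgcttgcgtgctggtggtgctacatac
Rpl4 (chr9:64173357-64173406, plus strand): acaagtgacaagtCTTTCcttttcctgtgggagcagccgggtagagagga

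The genes with and without the motif spanned overlapping ratios. The 18 genes with a sense CTTTC had a median deep over shallow log2 ratio of -1.61 and the 39 without it -1.79, and the ratios of the genes with it ran from 0.0450 (Rpl38) to 2.11 (Rpl15), those without it from 0.0302 (Rpl39) to 3.85 (Rpl10). No match says only that these letters are not in the window.

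Other parts of the translation apparatus gave 0 or 1 call per list in edgeR, 0 in limma-voom and more in DESeq2. Among ribosomal proteins outside the naming rule, Fau, whose product carries a small subunit protein, held 59.6 to 164 CPM in deep Olfr2+ columns, 289 to 376 CPM in shallow Olfr2+ columns and 33.1 to 452 CPM in Olfr2- columns. Gnb2l1, which encodes the ribosomal scaffold RACK1, held 557 to 1793, 1024 to 1150 and 491 to 2100 CPM in the same order. In either comparison neither gene was called by edgeR, DESeq2 or limma-voom, nor passed at an unadjusted p under 0.05.

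Among 35 translation factors 1 was called higher in Olfr2+ with all columns and 0 lower, and 0 were called with shallow columns (2 at an unadjusted p under 0.05). Over all genes with all columns edgeR called 1.12% higher and 0.46% lower and 32.1% had an unadjusted p under 0.05, while DESeq2 called 12.5% higher and 8.21% lower; with shallow columns 10.4% passed unadjusted, and DESeq2 called 7.08% higher and 1.51% lower. DESeq2 called 7 and 1 of the translation factors, all higher, and limma-voom 0. The gene called by edgeR was Eef1a1, which brings aminoacyl-tRNA to the ribosome and whose message also has a pyrimidine start. It held 2536 to 4113 CPM in deep Olfr2+ columns, 335 to 879 CPM in shallow Olfr2+ columns and 309 to 860 CPM in Olfr2- columns, so only its deep columns stood apart. Eef1b2, a subunit of its exchange factor, held 117 to 393, 410 to 759 and 414 to 2818 CPM in the same order, with the deep Olfr2+ columns the low ones. Of 76 tested mitochondrial ribosomal protein genes edgeR called 1 higher with all columns (Mrps15) and 0 with shallow columns, where 36 (47.4%) and 8 (10.5%) had an unadjusted p under 0.05. DESeq2 called 35 (47.3%) and 8 (11.6%) of those with an adjusted p, all higher, and limma-voom 0, so the count depends on the tool. Their summed level was 2207 to 3213 CPM in deep Olfr2+ columns, 1428 to 2300 CPM in shallow Olfr2+ columns and 712 to 2404 CPM in Olfr2- columns, so they did not share the low deep columns of the cytosolic genes.

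Of 31 ribosome biogenesis genes tested, 20 genes of translation control and S6 kinases, and 8 snoRNA host RNAs with a pyrimidine start (7 tested with shallow columns), edgeR called 0 in either comparison. At an unadjusted p under 0.05 with all columns, 8 biogenesis genes, 7 of translation control and 2 host RNAs passed, and DESeq2 called 8, 8 and 2, all higher. The biogenesis genes thus passed in 25.8% and those of translation control in 35% unadjusted, against 32.1% of all genes. By DESeq2 27.6% and 40% of those with an adjusted p were higher, against 12.5% of all genes. With shallow columns 2, 3 and 2 passed unadjusted, DESeq2 called 2, 1 and 1, and limma-voom called 0 in both comparisons. Nucleolin (Ncl), which processes ribosomal RNA, held 34.1 to 346 CPM in deep Olfr2+ columns, 595 to 742 CPM in shallow Olfr2+ columns and 420 to 973 CPM in Olfr2- columns, below both other sets in every deep column. Nop56, a core protein of the box C/D snoRNPs that guide ribosomal RNA methylation, held 11.7 to 137, 7.30 to 13.0 and 5.84 to 192 CPM in the same order. Larp1, which binds the pyrimidine start, held 3.19 to 94.1, 22.9 to 110 and 12.0 to 1372 CPM in the same order, and Mtor 0.751 to 186, 1.30 to 19.8 and 4.15 to 17.3 CPM, with overlap throughout.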

How the data were processed

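The authors deposited whole-number read counts per gene, not normalized, for 47729 features in 15 columns. STAR 2.7.1, DRAGEN, DESeq2 1.34 and GRCm39 are named in the submitters' processing notes, but no strand setting or annotation release. Smart-Seq2 is unstranded and has no molecular identifiers, so reads of one molecule cannot be told apart. The build behind the table was not settled, and 98.9% of gene IDs, without version, matched GENCODE M21 (GRCm38), which gave the lengths.

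The members and gene lists were chosen with earlier results of these data known, as was the division of columns at 60 M counts (M, 1000000). Levels are CPM of the column total, and log2 ratios of medians use a pseudocount of 0.5 CPM. Columns of a numbered sample were added up and tested in edgeR 4.0.16 (R 4.3.3; quasi-likelihood F test, TMM factors, expression filter by group), with Benjamini-Hochberg adjustment over all genes and a threshold of 0.05. Reading the number as a sample and the letter as a repeat is not stated in the labels, and the descriptions of the 15 columns give, beside each library name, a second name, of which there are 8. Alternatives were DESeq2 1.42.0, limma-voom (limma 3.58.1), other scalings and filters, columns as replicates, the number as a block, depth as a covariate and the omission of each sample; the other length measures and subsets were added after seeing the data. Scripts were checked on simulated counts first. With all columns, edgeR recovered 3 of 50 genes changed by 3 log2 units and 24 of 50 changed by 5.

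Genes were named by rule: those called, the 3 highest and 3 lowest fold changes per subunit with a mean of at least 10 CPM, the highest and lowest levels per length, the extremes of the deep over shallow ratio, paralogs and ribosomal proteins outside the naming rule; members named for a role outside these were chosen after their values were seen. A few items that meet the rule are not reported here.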

Additional observations from a re-analysis of the deposited data

Results flagged for a closer look

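Levels of each named member were examined for a column far from the others of its set, on the log2 scale, in 120 sets of columns. Chance alone flags about 1 in 20 such sets, and 7 stood apart. Rpl15 was at 5.78 CPM in Olfr2+ column 2A against 56.3 to 149 CPM in the other deep Olfr2+ columns, and at 86.7 CPM in Olfr2- column 3A against 2.04 to 6.49 CPM in the other Olfr2- columns. Rps6 was at 10.8 CPM in Olfr2+ column 2C against 55.4 to 170 CPM in the other deep Olfr2+ columns. Rps29 was at 88.5 CPM in Olfr2- column 4B against 316 to 441 CPM in the other Olfr2- columns. Rps27l was at 20.9 CPM in Olfr2+ column 4B against 68.4 to 219 CPM in the other 9 Olfr2+ columns. Of the suffixed copies, Rpl7a-ps5 was at 2.37 CPM in Olfr2+ column 4A against 0.0326 to 0.669 CPM in the other Olfr2+ columns, and Rps12-ps3 at 0.923 CPM in Olfr2+ column 3A against 0.0543 to 0.303 CPM in the other deep Olfr2+ columns.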

How the results depend on the processing

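Across the alternatives, 57 values that answer a comparison kept their direction and side of the threshold, and the exceptions follow. With all columns, where edgeR called 0 members, DESeq2 called 3 and the columns as replicates called 1 (Rpl4), and leaving out each sample gave 0 to 1, the 1 being Rpl4 without Olfr2+ sample 4. The median log2 fold change with all columns, 0.54, was -0.42 with library totals and -0.54 when limited to genes averaging at least 10 CPM, and 0.11 to 1.08 when each sample was left out. With shallow columns the median of 0.99 was 0.14 with a mean of at least 10 CPM and 0.56 to 1.34 when each sample was left out, with 0 members called throughout. The deep over shallow Olfr2+ ratio of summed levels, 0.336, was 0.280 relative to protein-coding counts and 0.456 with TMM factors, and the shallow Olfr2+ over Olfr2- ratio, 1.08, was 1.60 with TMM factors. The cause of these shifts was not tested.

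Whether the numbers shared by samples of both labels pair them could not be decided from so few samples. The deviations of same-numbered samples correlated at 0.014 (number 3) and -0.071 (number 4), and those of unlike numbers at 0.049 and -0.150. With the number as a block 0 members were called in either comparison, and the medians were 0.43 with all columns and 0.81 with shallow columns.

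Among named genes, direction turned as follows. With all columns, Rpl24 was at 0.43 with the block, Rplp2 at 0.38, Rps15a at 0.25, Rps26 at 0.49 and Rps9 at 0.60 with depth as a covariate, and without 1 sample Rpl22l1 ranged from -3.09 to 2.05 and Rps9 from -1.67 to 0.29 (0.17 without Olfr2+ sample 3). With shallow columns, Rpl22l1 was at 0.38 in limma-voom and ranged from -3.30 to 3.18 without 1 sample, and Rps6 from -4.25 to 2.46 (0.46 without Olfr2+ sample 3). None of these genes passed the threshold in edgeR.

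Each comparison rests on 2 or 3 samples of pooled tissue per label, and the smallest edgeR adjusted p of any member was 0.0634 with all columns and 0.473 with shallow columns. Members near 0 CPM, such as Rpl3l, rest on few counts. Intervals on read counts would cover counting error only, and none are given.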
